A study of Mus musculus with 6 samples.

Results

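Slc2a1, Pfkp, Aldoc, Pgam1, Slc16a3 and Car9 encode a glucose transporter, 3 glycolytic enzymes, a lactate exporter and a carbonic anhydrase, and they are 6 of the 617 genes listed for the right ventricle (RV) of newborn mice. They were picked by name from the listed genes, and a gene is listed there for its difference between the operated groups, so each level below was part of the choice. RV tissue came from C57/BL6J mice of WT genotype. In 3 libraries the mice had undergone pulmonary artery banding (PAB) on postnatal day 1, a thread tied around the artery that narrows it and raises the pressure against which the RV pumps. In the other 3 the mice had a sham operation on the same day, in which no band was placed. Tissue was collected on postnatal day 7, when the mice were still with their mothers. Pups of either sex were used, and the sources used here do not say whether a library is a single pup or a pool, so the spreads and p-values below are between libraries and may be technical. RV tissue is a mixture of cells, and in such bulk samples a change in the share of a cell type cannot be told apart from a change of RNA per cell.

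Glycolysis splits glucose into pyruvate in the cytosol and yields ATP without oxygen. When pyruvate is not passed on to the mitochondria it is reduced to lactate, which leaves the cell together with a proton, and carbonic anhydrases at the cell surface help to carry acid away. The fetal heart relies much on glucose and lactate, and after birth cardiomyocytes turn to fatty acids as their main fuel. Several genes of glucose uptake, glycolysis and acid export are known to be induced by hypoxia-inducible factors.

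From their low values, the values appear to be read counts that the authors divided by a size factor for each library, and they are called normalized reads here. The sources used here do not state this unit, and the lowest values, which would show it best, are few. The inferred size factors, the relative depths of the libraries, ran from 0.939 to 1.07. The total depth is unknown, because the table holds only selected genes. The smallest difference between group means among them was 1.00 on the log2 scale. Of the 290 listed genes that were higher in PAB, 252 (86.9%) had their highest PAB value in PAB replicate 1. In 216 of the 290 (74.5%) the lowest PAB value was in PAB replicate 3, so both libraries often lay at an end. Values without PAB replicate 1 are given with each gene below, and values without PAB replicate 3 are given under the processing. Among 9 fixed markers of cardiomyocytes only Pln was listed, at 21385 to 27039 normalized reads in sham and 9037 to 12438 in PAB. None of the 7 erythroid, 5 neutrophil, 5 cycling-cell or 5 atrial markers was listed, and those cells were not analysed here.

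All 6 genes were higher in PAB than in sham, and for all 6 the groups did not overlap. Among all listed genes, 47.0% were called higher in PAB (unadjusted p under 0.05 in limma, a linear model fitted to all genes) and in 44.6% the lowest PAB library lay above the highest sham library. In another 52.5% the highest PAB library lay below the lowest sham library. Every listed gene (100%) was called in one direction or the other. Since the 6 were selected on this very contrast, nothing is read from their count, and their log2 fold changes are given as a description without a test. The median log2 fold change of the 6 was 1.35, beside 1.45 over the 290 listed genes that were higher in PAB.

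Slc2a1 encodes GLUT1, the facilitative transporter that lets glucose into most cells and that is abundant in the fetal heart. It lies at chr4:119108711-119137983 of GRCm38 on the plus strand, with 10 exons in its principal transcript. The sham libraries held 243.1, 226.3 and 271.6 normalized reads in replicates 1, 2 and 3. The PAB libraries held 1005.4, 553.4 and 329.8. The sham values lay close together, whereas PAB replicate 3 was only 1.21 times the highest sham library and PAB replicate 1 was 3.05 times PAB replicate 3. The means were 247.0 ± 22.9 (SD, n = 3) in sham and 629.5 ± 344 (SD, n = 3) in PAB. On the scale of log2(value + 1) PAB exceeded sham by 1.20 (standard error 0.36), the log2 fold change used from here on, and by 0.79 without PAB replicate 1. The log2 fold change of Slc2a1 with that library was 1.52 times the one without it. An unstranded count could mix Slc2a1 with Gm12868 on the opposite strand, whose exons overlap 105 of its 3506 exonic bases.

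Pfkp encodes the platelet-type subunit of phosphofructokinase, which catalyses the committed step of glycolysis. It lies at chr13:6579768-6648777 on the minus strand, with 22 exons in its principal transcript. Sham replicates 1, 2 and 3 held 1292.8, 1299.0 and 1325.6 normalized reads, and no other gene of the 6 varied so little in sham. PAB replicates 1, 2 and 3 held 4256.9, 3219.2 and 2575.9, so the lowest PAB library was 1.94 times the highest sham library. The log2 fold change was 1.33 (standard error 0.25), and 1.14 without PAB replicate 1. Exons of Pitrm1 on the opposite strand overlap 748 of the 13401 exonic bases of Pfkp.

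Aldoc encodes aldolase C, an isoform best known from brain that cleaves fructose bisphosphate into 2 three-carbon sugars. It lies at chr11:78322968-78327781 on the plus strand, with 9 exons in its principal transcript. It was a low gene in all libraries, with 29.3, 20.6 and 11.5 normalized reads in sham replicates 1, 2 and 3 and 66.0, 51.6 and 39.7 in PAB. These values rest on an estimated 11 to 31 reads per sham library and 40 to 62 per PAB library. Sham values differed 2.54 times among themselves, and the lowest PAB library was 1.36 times the highest sham library. The log2 fold change was 1.38 (standard error 0.42), 1.20 without PAB replicate 1 and 1.03 without sham replicate 3.

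Pgam1 encodes the phosphoglycerate mutase found in most tissues, which moves the phosphate group along the three-carbon chain late in glycolysis. It lies at chr19:41911871-41918664 on the plus strand. Sham replicates 1, 2 and 3 held 1124.5, 1004.4 and 1282.6 normalized reads. PAB replicates 1, 2 and 3 held 3296.2, 2422.8 and 1526.9. The lowest PAB library was 1.19 times the highest sham library, the narrowest gap of the 6 genes. The log2 fold change was 1.02 (standard error 0.29), and 0.76 without PAB replicate 1. It was 1.62 under median-ratio scaling, which raised PAB relative to sham for all genes. A stretch of up to 765 bases of its transcript occurs at 95% identity or more in the processed copies Pgam1-ps1 and Pgam1-ps2, so its reads could be split among them.

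Slc16a3 encodes MCT4, a monocarboxylate transporter suited to the export of lactate with a proton, and is typical of strongly glycolytic cells. It lies at chr11:120948480-120960868 on the plus strand, with 6 exons in its principal transcript. Sham replicates 1, 2 and 3 held 174.0, 162.7 and 205.6 normalized reads, whereas PAB replicates 1, 2 and 3 held 1748.8, 750.8 and 461.9. All PAB libraries were more than 2 times the highest sham library, and the 3.79-fold range among them was the widest of the 6 genes. The means were 180.8 ± 22.2 (SD, n = 3) in sham and 987.1 ± 675 (SD, n = 3) in PAB. This gave a log2 fold change of 2.23 (standard error 0.41), and of 1.71 without PAB replicate 1.

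Car9 encodes carbonic anhydrase 9, an enzyme on the outer cell surface that converts CO2 and water into bicarbonate and a proton. It lies at chr4:43506966-43513729 on the plus strand, with 11 exons in its principal transcript. Sham replicates 1, 2 and 3 held 13.2, 2.81 and 7.34 normalized reads, an estimated 14, 3 and 7 reads. PAB replicates 1, 2 and 3 held 123.5, 68.4 and 62.6, or an estimated 116, 69 and 63 reads. Car9 was thus near the floor of detection in sham and was the gene of the 6 with the largest change, with every PAB library at least 4.73 times the highest sham library. Over the pooled estimated reads the ratio of PAB to sham was 10.8, with a 95% interval of 7.08 to 17.1 (exact Clopper-Pearson) that covers counting error only and is no test between the groups. The log2 fold change was 3.42 (standard error 0.53), and 3.11 without PAB replicate 1. With each library left out in turn it ranged from 2.91 without sham replicate 2 to 3.86 without sham replicate 1. Exons of Gm12454 on the opposite strand overlap 214 of its 2304 exonic bases.

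**Figure D1:**
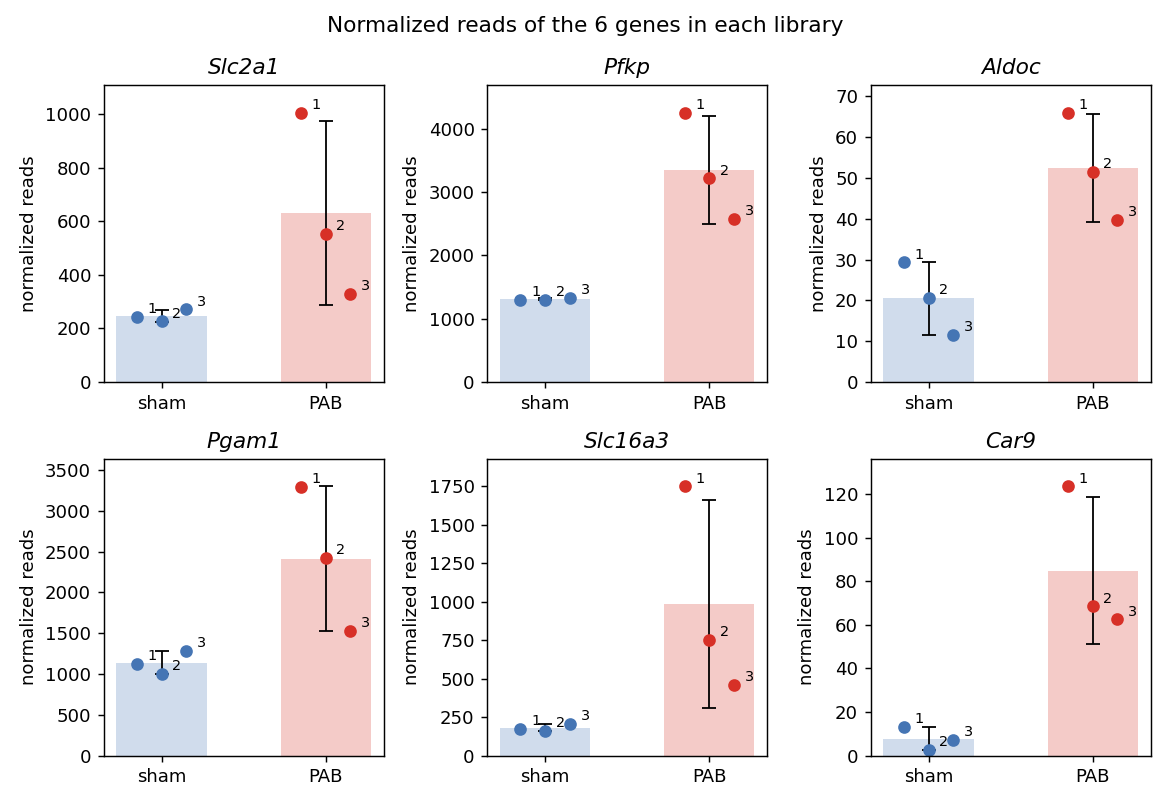
Normalized reads (vertical axis, from 0) of the 6 genes in sham and PAB. Points are libraries marked with their replicate number, bars are means and error bars are SD over 3 libraries. In each panel all 3 PAB points lie above all 3 sham points, and PAB replicate 1 is highest.

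The 6 genes ordered the PAB libraries alike. In 6 of 6, replicate 1 was highest, replicate 2 followed and replicate 3 was lowest. The same order held for 199 of the 290 listed genes that were higher in PAB (68.6%), so the 6 shared it with most of these. The height of the steps differed. Slc16a3 went from 3.27 above the sham mean in PAB replicate 1 to 1.36 in replicate 3 on the log2(value + 1) scale, and Slc2a1 from 2.02 to 0.42. Pfkp went only from 1.70 to 0.98 and Car9 from 4.02 to 3.05. The coefficient of variation in PAB lay between 25.1% (Aldoc) and 68.4% (Slc16a3), with a median of 38.1% over the 6 and 40.2% over the 290. In sham it lay between 1.33% (Pfkp) and 67.1% (Car9), and the highest values there, those of Car9 and Aldoc, belong to the genes with the fewest reads.

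**Figure D2:**
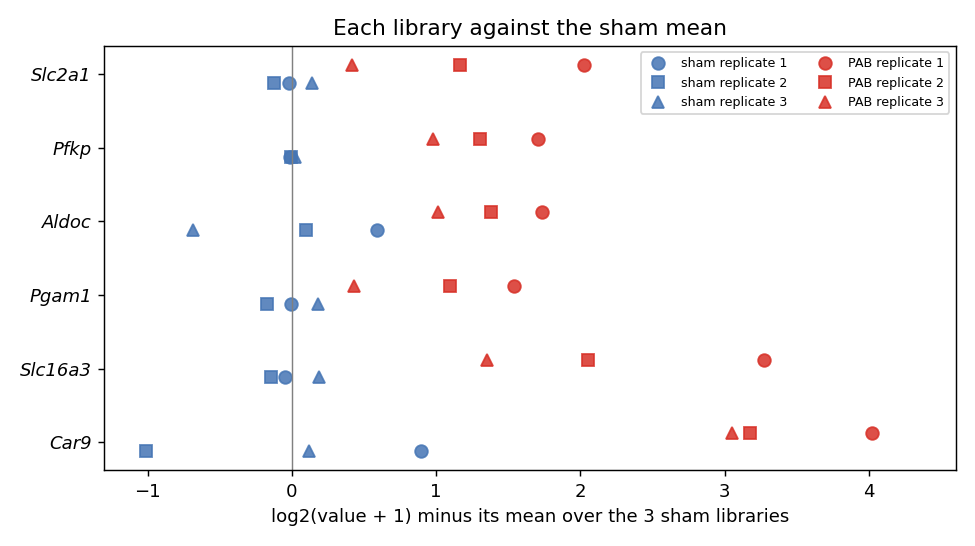
Each library as log2(value + 1) minus the mean of the 3 sham libraries (horizontal axis, log2 units), for the 6 genes. Blue is sham, red is PAB and the marker gives the replicate. In PAB, circles (replicate 1) are rightmost and triangles (replicate 3) leftmost for every gene, and the triangles of Slc2a1 and Pgam1 lie at 0.42 and 0.43.

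Levels can be compared between genes only per length, and they were divided here by the length of the principal transcript in GENCODE M21, a length chosen after seeing the data. In sham, Pgam1 was first at 640.7 ± 78.6 normalized reads per kb (SD, n = 3). Pfkp followed at 315.0 ± 4.21, Slc2a1 at 75.8 ± 7.03 and Slc16a3 at 41.7 ± 5.12, each without overlap with the next. Aldoc at 7.35 ± 3.19 and Car9 at 3.85 ± 2.59 overlapped. In PAB the order was Pgam1 (1361 ± 498), Pfkp (808.4 ± 205), Slc16a3 (227.7 ± 156), Slc2a1 (193.1 ± 106), Car9 (41.9 ± 16.6) and Aldoc (18.8 ± 4.73). There Pgam1 and Pfkp overlapped, as did Slc16a3 and Slc2a1, while Car9 lay above Aldoc in all libraries. With the deposited gene length, which joins the exons of all transcripts, the order within each group was the same, but the overlaps in PAB differed. There Pgam1 and Pfkp did not overlap, whereas Pfkp and Slc16a3 did, as did Slc16a3 and Slc2a1. Pfkp came to 97.4 per kb in sham on that length of 13401 bases, against 4145 for its principal transcript.

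**Figure D3:**
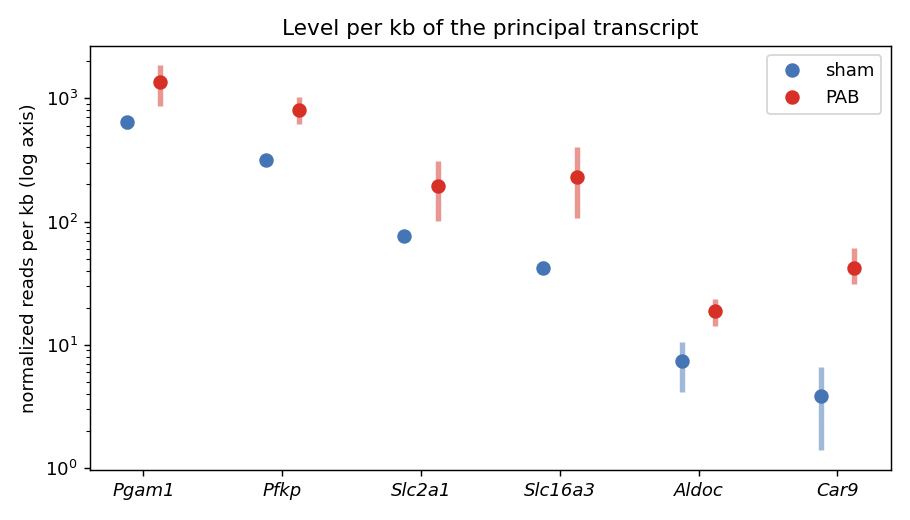
Normalized reads per kb of principal transcript (vertical log axis) for the 6 genes, ordered by the sham level. Points are means and bars run from the lowest to the highest of 3 libraries. Pgam1 and Pfkp lead in both groups, and Aldoc and Car9 overlap in sham.

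The starts of the genes were searched for ACGTG and GCGTG on both strands, the core letters of the hypoxia response element. RefSeq windows of 300 bases on GRCm38.p6, from 250 before to 50 after a start, were found for all 6 genes, 7 windows in all since Aldoc has a pair. Every window held at least 1 of the motifs. Of all 32851 windows, 43.8% did, with 19.6% holding ACGTG and 32.4% GCGTG. Counted by gene, 5 of the 6 held ACGTG (all but Pfkp), beside 21.8% of all genes and 31.6% of the 206 listed genes higher in PAB that had a window. Among the 222 listed genes lower in PAB with a window the share was 27.5%. Neither motif was found in all 6 genes, since Pfkp lacked ACGTG and Slc16a3 and Car9 lacked GCGTG. At least 1 of the motifs was held by 59.7% of the listed genes higher in PAB, 52.7% of those lower and 46.7% of all genes. The match of Aldoc to ACGTG lies after the start. The stretches before the start that hold the motifs are shown 5′ to 3′ along each gene to place the matches, with ACGTG and GCGTG or their reverse complements (CACGT and CACGC) in capitals. No match overlaps another, and the palindrome CACGTG is not among them. A match describes these letters only and is not evidence of binding.
Slc2a1, chr4:119108678-119108719, plus strand: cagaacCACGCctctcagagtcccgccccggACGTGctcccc
Pfkp, chr13:6648784-6648913, minus strand: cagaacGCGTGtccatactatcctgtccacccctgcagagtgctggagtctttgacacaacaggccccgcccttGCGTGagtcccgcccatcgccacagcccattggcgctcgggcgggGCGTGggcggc
Aldoc, upstream window, chr11:78323017-78323033, plus strand: ctgaggGCGTGgcctta
Aldoc, downstream window, chr11:78324153-78324169, plus strand: atccccCACGCtgcatc
Pgam1, chr19:41911690-41911793, plus strand: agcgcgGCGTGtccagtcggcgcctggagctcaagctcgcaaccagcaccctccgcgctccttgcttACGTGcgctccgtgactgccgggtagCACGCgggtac
Slc16a3, chr11:120949034-120949063, plus strand: gcggtgACGTGcgcgggggACGTGccgcgc
Car9, chr4:43507002-43507018, plus strand: ccgatgCACGTacagcc
Slc16a3 carries ACGTG at 27 and 14 bases before its start and Car9 a single reverse match at 18 bases before. Pfkp holds GCGTG at 136, 68 and 23 bases before the start. The stretches of Car9 and Aldoc lie within annotated exons of these genes in GENCODE M21, while those of Pfkp and Pgam1 lie outside annotated exons of the gene.

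The other genes of glucose metabolism were read from fixed lists. Of 28 symbols of glycolytic enzymes, 5 were listed, 4 higher and 1 lower in PAB, and the remaining 23 were not analysed here. No other subunit of phosphofructokinase, no other aldolase and no other phosphoglycerate mutase of the list was among them. Pfkfb1, an isoform of the enzyme that makes and breaks the activator of phosphofructokinase, was lower, with 51.1, 56.1 and 52.4 in sham and 21.3, 27.8 and 18.9 in PAB.

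Fbp2 encodes the muscle fructose bisphosphatase, which runs the phosphofructokinase step backwards, and was the listed gene among 24 symbols of pathways that branch from glycolysis. It held 367.9, 390.9 and 510.7 normalized reads in sham and 71.4, 94.2 and 110.3 in PAB. Fbp2 thus lay on the other side of Pfkp in all 3 PAB libraries, with a log2 fold change of -2.20 (standard error 0.27). Of 18 symbols of glycogen metabolism, Gbe1 (the branching enzyme) was higher, by 1.07 on the log2 scale. Phkg1, the catalytic subunit of muscle phosphorylase kinase, was lower with -2.88, and 630 of its 6509 exonic bases overlap Sumf2. Slc2a1 was the listed gene among 7 symbols of glucose uptake, and Slc16a3 among 18 of lactate and pyruvate handling.

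Of 23 symbols of acid and bicarbonate handling, 3 were listed. Besides Car9, the sodium-driven bicarbonate exchanger gene Slc4a8 held 36.9, 17.8 and 23.1 normalized reads in sham and 107.6, 51.6 and 45.7 in PAB, all above sham. Slc26a6, an anion exchanger, was lower, with 310.2, 259.0 and 216.0 normalized reads in sham replicates 1, 2 and 3 and 82.0, 109.1 and 135.1 in PAB. None of 16 symbols of the regulators of glucose transport was listed. All listed genes of these lists passed the threshold in limma, as 100% of the table did.

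Genes of fatty acid use were listed only on the lower side, 3 of 39 symbols. Slc27a1, a fatty acid transport protein, held 1888.8 to 2275.5 normalized reads in sham and 850.9 to 887.1 in PAB, a log2 fold change of -1.24. Ucp3, a mitochondrial carrier tied to fatty acid oxidation, had one of -1.45. The groups did not overlap in either gene. Among all listed genes 53.0% were called lower in PAB.

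Of 37 symbols of hypoxia-induced genes and their regulators, 6 were listed, 5 higher and 1 lower. Bnip3, which promotes the removal of mitochondria, held 694.2, 676.1 and 981.6 normalized reads in sham replicates 1, 2 and 3 and 3262.1, 2459.5 and 1569.6 in PAB, the same order of PAB libraries as in the 6 genes. Exons of Gm45507 on the opposite strand overlap 504 of the 2265 exonic bases of Bnip3. Transcripts of Bnip3 also share stretches of up to 858 bases with 5 other genes at 95% identity or more. Stc1, a secreted glycoprotein gene, held 58.9 to 87.0 in sham and 186.8 to 397.3 in PAB. Plod2, a collagen lysyl hydroxylase gene, had a log2 fold change of 0.97. Ddit4, an inhibitor of mTORC1, had one of 1.67, but PAB replicate 3 with 380.5 lay below sham replicate 3 with 430.0. Apln, the apelin gene, was lower with -1.05. The list was written with earlier results of these data known, so its count is no separate evidence of a direction.

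**Figure D4:**
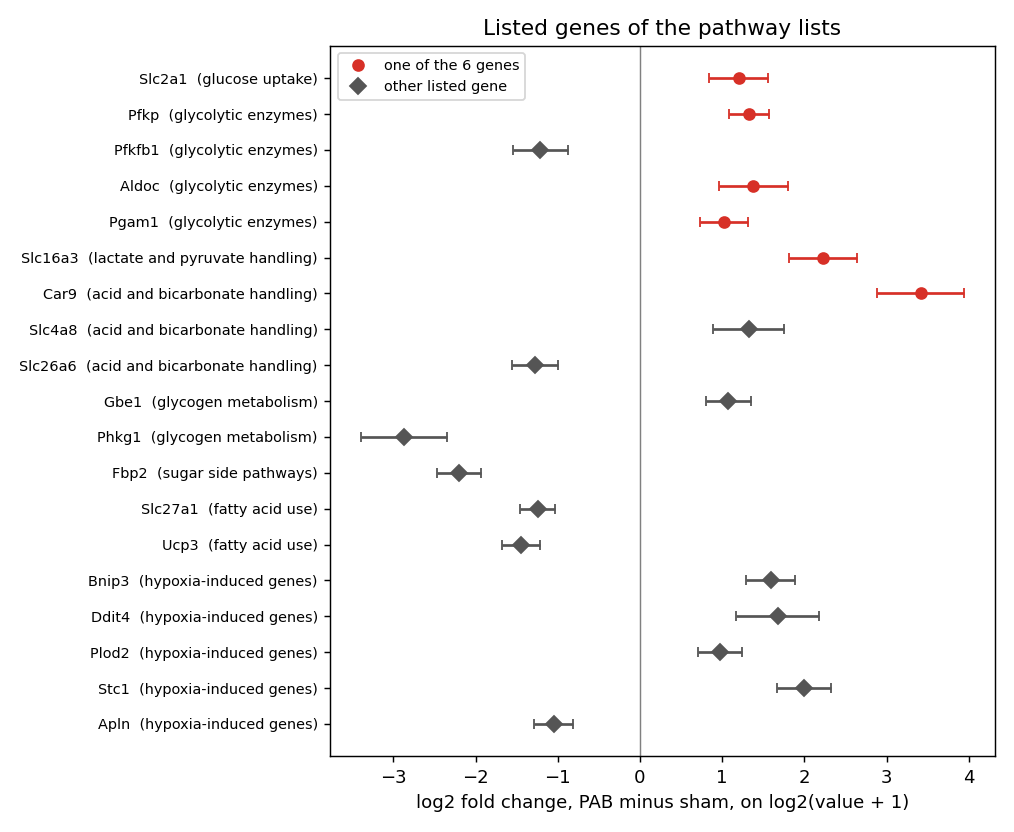
Log2 fold change of PAB minus sham on log2(value + 1) (horizontal axis) for 19 listed genes of the pathway lists, with bars for the standard error in limma. Red circles are the 6 genes and grey diamonds the other 13. Car9 lies furthest to the right at 3.42 and Phkg1 furthest to the left at -2.88, and Slc27a1 and Ucp3 of fatty acid use lie left of 0.

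The listed markers of other cell types differed between the groups, as every listed gene did by selection. The markers that were not listed were not analysed here, so a listed marker alone does not describe its cell type. The part of these markers in the 6 genes' values was not tested. Of 6 endothelial markers Flt1 was listed, at 1494.4 to 1834.3 normalized reads in sham and 2698.1 to 4361.2 in PAB. Of 6 markers of smooth muscle and pericytes Cnn1 was listed, at 105.7 to 122.0 and 288.6 to 680.5. Dpt, of 7 fibroblast markers, went the other way from 4649.1 to 4759.1 down to 1486.8 to 2511.4, and C1qa, of 7 macrophage markers, from 642.9 to 700.4 down to 270.7 to 346.7. Of 8 skeletal muscle markers Acta1, which the young and the loaded heart also express, was listed at 2462.3 to 2978.2 in sham and 34096.2 to 61076.4 in PAB, and Tnni2 at 35.7 to 44.0 and 2.13 to 12.9. None of these genes was at 0 in any library.

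Among 553 listed genes with a mean of at least 20 that are not of the 6, those whose log2(value + 1) followed the mean of the 6 most closely over the 6 libraries were Scube2, Pparg, Mgp, Tnfrsf12a and Edn1. Their Pearson correlations were 0.998, 0.997, 0.996, 0.996 and 0.995. The median over the 257 of these genes that were higher in PAB was 0.947, since the libraries fall into the 2 groups on which all genes were listed, so a high value is common here. The 6 genes themselves correlated with their own mean at 0.902 (Aldoc) to 0.988 (Pfkp). By log2 fold change Car9 ranked 21 and Slc16a3 58 among the 290 genes higher in PAB, while Aldoc ranked 159, Pfkp 168, Slc2a1 205 and Pgam1 257. By mean level in PAB, before any division by length, Pfkp ranked 28 and Pgam1 38.

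**Figure D5:**
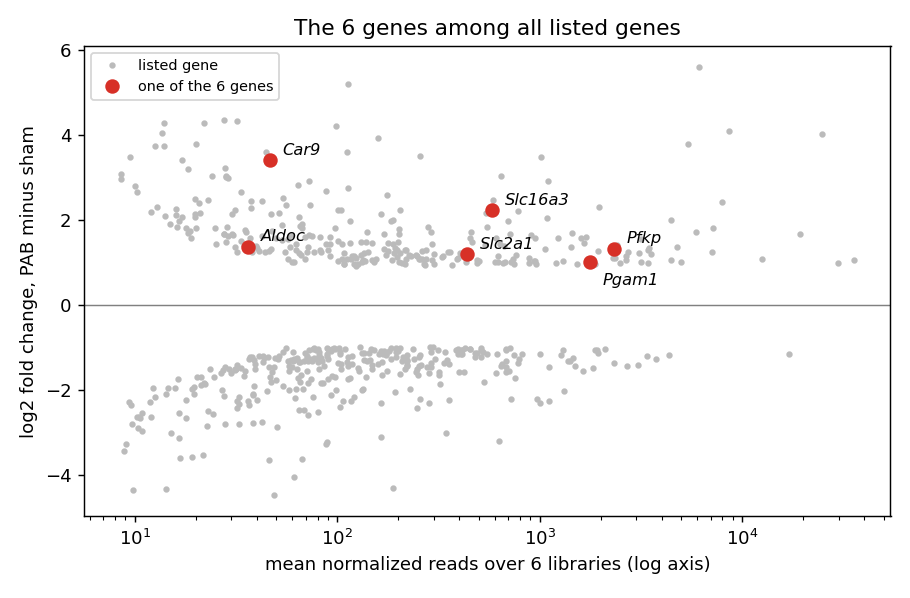
Log2 fold change of PAB minus sham (vertical axis) against the mean normalized reads over 6 libraries (horizontal log axis) for all 617 listed genes in grey, with the 6 genes in red. No gene lies near 0 because the table lists only genes that differ, and Pfkp and Pgam1 sit among the abundant genes, and Car9 and Aldoc among the low ones.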

How the data were processed

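The RV was profiled by RNA sequencing in 3 libraries of each group. The submitters' processing notes name HISAT2 2.0.5, StringTie 1.3.3b, featureCounts 1.5.0-p3, GATK 3.7 and the build mm10, and the study's methods name DESeq2. The deposited values are called FPKM, but they appear to be a signal of another kind, counts divided by a size factor: of the 160 to 215 values per library below 50 reads, 100% were whole numbers of reads to within 0.1. The values near 1 read are too few to settle this unit, and no count model was fitted. The reads given for Aldoc and Car9 are estimates, the values multiplied by the size factor inferred from the values themselves. The authors also deposited log2 fold changes, p-values and adjusted p-values of their own comparison, which were not used. Whether reads were counted by strand is not given in the sources used here.

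Values were fitted as log2(value + 1) over all 617 genes with a mean of at least 0.1 in limma 3.58.1 (R 4.3.3, eBayes with trend, two-sided), after a test on simulated data. Adding 1 understates the change of low genes. The standard errors are those of limma, which draws the variance of each gene toward a trend over all listed genes. These were all selected for their difference, so the standard errors may be too small. Of the listed gene IDs, 616 were found in GENCODE M21 (GRCm38), 597 with the same coordinates. The coordinates of Pgam1 differ there and are given as deposited. Shared stretches (at least 100 bases at 95% identity) were sought with blastn 2.17.0. Other steps used Python 3.11.15. Named genes are the 6, every listed gene of the lists except 3 that are counted but not reported here by name, the 5 most similar genes, the listed cell type markers and 4 genes of the same families chosen after their values were seen. Alternatives were eBayes without trend, median-ratio scaling, a pseudocount of 0.1, omitting the filter or raising it to 1, a replicate block and leaving out each library. The 6 genes and the lists were chosen with earlier results of these data known. With 3 libraries per group, precision is limited by their number.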

Additional observations from a re-analysis of the deposited data

How the results depend on the processing

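The 6 genes were higher in PAB under each alternative run, and their groups did not overlap with any library left out or under median-ratio scaling. These last runs could not have made the groups overlap. Groups that lie apart stay apart when a library is left out, and median-ratio scaling raised every PAB library relative to every sham library. That scaling, which assumes that most listed genes do not differ, raised PAB relative to sham by 0.59 (log2). It moved the median log2 fold change of the 6 from 1.35 to 1.94 and left 506 of 617 genes past the threshold, with the 290 higher calls kept in number and the lower calls down from 327 to 216. With each library left out, the median lay between 1.17 and 1.58 and from 591 to 614 genes passed, and Slc2a1 ranged from 0.79 (without PAB replicate 1) to 1.59 (without PAB replicate 3). Each of the 6 stayed past the threshold in all of these fits, which rests on genes selected for this contrast. Sham and PAB libraries share replicate numbers. Deviations from the group means correlated across genes at a mean of -0.10 for same-numbered libraries and 0.05 for the others. With 3 libraries per group such deviations are tied to one another, so this cannot decide whether the numbers pair the libraries. With the replicate block limma called 616 genes and none of the 6 was lost. The filters removed no gene. The length of the principal transcript, chosen after seeing the data, in place of the deposited length moved Pfkp from 97.4 to 315.0 normalized reads per kb in sham and Slc16a3 from 34.0 to 41.7.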

Other observations

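Other listed genes of the same families were picked out after their values were seen. Slc2a13, whose protein carries myo-inositol with protons, held 19.9, 31.8 and 50.3 normalized reads in sham replicates 1, 2 and 3 and 90.5, 78.3 and 81.5 in PAB. Its PAB values lay close together, unlike those of Slc2a1. Slc16a12, a relative of Slc16a3, was lower in PAB, with 186.3, 163.7 and 165.7 in sham and 83.1, 86.3 and 88.4 in PAB.

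Eno1b and Pgk1-rs7 are copies of the glycolytic genes Eno1 and Pgk1, which were not analysed here. Eno1b held 22.7, 47.7 and 72.4 normalized reads in sham and 178.9, 113.1 and 60.6 in PAB, so the groups overlapped. Pgk1-rs7 held 12.3, 13.1 and 17.8 in sham and 49.0, 34.7 and 42.7 in PAB, all above sham. Transcripts of Eno1b share up to 1736 bases with Eno1 or its copies at 95% identity or more, and those of Pgk1-rs7 share up to 1255 bases with Pgk1 or its copies. How reads were shared out among such copies was not tested.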
